A study of Rattus norvegicus with 15 samples.

Results

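The S100 proteins examined here are 10 small calcium-binding proteins of the rat: S100a1, S100a4, S100a6, S100a8, S100a9, S100a10, S100a11, S100a13, S100b and S100g. They were chosen by name, as the probe sets that the array's gene table assigns to a single one of these symbols. Each gene had 1 such probe set, so 10 of the table's 31099 probe sets, and 10 of its 14217 singly named genes, were followed over all 15 arrays. The arrays carried biotin-labelled RNA from whole testes of LBNF1 rats, an F1 hybrid strain, aged 25 to 27 weeks. There were 5 arrays of irradiated testes and 10 arrays of control testes, and the rats' lower abdomen received 6 Gy. The treatment text reads alike for all 15 samples, the source field places the irradiated testes after and the control testes before irradiation, and no source used here gives the interval from irradiation to collection. The labels call the replicates biological and do not tell whether they came from separate rats. The p-values then cover only the spread among these 15 samples, which may be technical in part.

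S100 proteins work mostly as dimers. In most of them, calcium binding to a pair of EF-hand loops opens a surface that grips a partner protein, often an annexin at a membrane, a cytoskeletal protein or a kinase. Some are also secreted and then bind receptors on other cells, the receptor for advanced glycation end products (Ager) and Toll-like receptor 4 (Tlr4) among them. In the testis, antibodies to S100 proteins are known to stain mainly somatic cells.

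In irradiated testes 5 of the 10 genes were higher than in control testes: S100a4, S100a6, S100a10, S100a11 and S100b. Their measured changes lay between 2.49 and 4.21 on the log2 scale, with a median of 2.99 (2.83 with S100a4 at its lower bound of 2.21), while the median over all 10841 genes tested was 0.20. These 5 were the members that passed the filter on dim probe sets (at or above the array's median in at least 5 arrays), and 5 of these 5 passed the limma test at an adjusted p of 0.05, all upwards. S100a4 reached the filter through the irradiated arrays, with 1 of 10 control arrays at its median, so its call adds no support. The same test called 85.5% of all genes tested, 47.6% higher and 37.9% lower. In each of the 5, every irradiated array lay above every control array, as it did in 40.5% of all genes tested (69.5% had no overlap in either direction). The other 5 genes, S100a1, S100a8, S100a9, S100a13 and S100g, did not reach the filter, and 4 of them lay below the array's median on every array.

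Genes of meiotic and later germ cells were far lower in irradiated testes: 14 of the 14 tested were lower, with a median measured change of -8.12. That size has no floor at the array's median, and dim irradiated values enter it. The summed linear signal of these genes was 1.19 to 3.99 in irradiated testes and 333 to 490 in control testes. Of the Sertoli cell markers, 12 of 12 tested were higher (median 2.29, summed signal 135 to 185 in irradiated and 29.8 to 41.1 in control testes). Of the Leydig cell markers, 10 of 10 were higher (median 3.34, summed signal 98.0 to 119 in irradiated and 7.93 to 10.9 in control testes). Both groups thus carried the somatic markers of a testis. In bulk tissue, fewer cells of a type and less RNA per cell cannot be told apart, and the part that these markers' shifts play in the S100 changes was not tested.

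The promoters of S100a4, S100a6, S100a11 and S100b are shown because these genes were each higher in irradiated testes. They are 4 of the 5 risen members that the RefSeq promoter table for the assembly GRCr8 holds. Each line gives the 250 bases before the annotated start, 5′ to 3′ on the gene's strand, with TATAA (the core of a TATA box) and GGGCGG (a GC box) in capitals. 
S100a4, chr2:178388279-178388528, plus strand: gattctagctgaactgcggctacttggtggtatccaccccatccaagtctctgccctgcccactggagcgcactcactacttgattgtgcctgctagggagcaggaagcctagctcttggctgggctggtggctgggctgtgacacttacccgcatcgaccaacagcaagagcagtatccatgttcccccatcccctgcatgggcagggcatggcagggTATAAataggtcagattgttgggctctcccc
S100a6, chr2:178398287-178398536, plus strand: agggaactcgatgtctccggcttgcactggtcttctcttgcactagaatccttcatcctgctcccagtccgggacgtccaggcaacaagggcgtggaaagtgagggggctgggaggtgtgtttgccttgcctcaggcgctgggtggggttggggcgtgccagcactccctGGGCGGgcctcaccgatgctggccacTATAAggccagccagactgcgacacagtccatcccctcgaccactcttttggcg
S100a11, chr2:181874882-181875131, plus strand: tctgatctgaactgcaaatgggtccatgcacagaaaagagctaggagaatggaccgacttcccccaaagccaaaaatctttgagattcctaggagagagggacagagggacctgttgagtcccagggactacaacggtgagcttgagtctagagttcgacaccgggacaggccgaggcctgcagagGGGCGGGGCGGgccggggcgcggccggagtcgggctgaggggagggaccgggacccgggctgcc
S100b, chr20:12381082-12381331, minus strand: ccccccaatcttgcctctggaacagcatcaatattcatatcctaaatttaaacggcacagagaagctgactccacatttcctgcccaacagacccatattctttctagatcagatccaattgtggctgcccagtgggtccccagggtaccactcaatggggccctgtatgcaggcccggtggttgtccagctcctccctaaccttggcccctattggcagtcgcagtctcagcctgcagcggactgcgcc
TATAA began 31 bases before the start in S100a4 and 54 bases before it in S100a6. GGGCGG began 80 bases before the start in S100a6, and 64 and 59 bases before it in S100a11, where both copies share 1 letter. S100b held neither. Both strands were searched, all hits were on the gene's strand, and a search for TGANTCA, the letters of an AP-1 site, found none in the promoters of these 4 genes. Among all 33469 promoters of the table, 24% held TATAA, 30.5% held GGGCGG and 6.34% held TGANTCA in the same 250 bases. S100a9 and S100a13, which did not reach the filter on dim probe sets, held TATAA and GGGCGG respectively. S100a16, another S100 gene that was higher in irradiated testes, held neither. A link of these motifs to the changes was not tested. Base composition was 57.6% G and C in S100a4, 62.4% in S100a6, 62% in S100a11 and 54.8% in S100b, against a median of 51.2% over the table.

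S100a10 and S100a11 bind annexins. S100a10 does not respond to calcium. It forms a complex with annexin A2 that sits under the plasma membrane and carries channels and plasminogen to the cell surface. Its log2 signal was 2.59, 2.50, 2.02, 2.29 and 2.14 in irradiated replicates 1 to 5, and in control testes the lowest value was -1.02, the median -0.63 and the highest -0.48. The groups were separated by a wide gap, with little spread inside either. The means were 2.31 ± 0.24 in irradiated testes (SD, n = 5) and -0.70 ± 0.18 in control testes (SD, n = 10). The change was 3.01 ± 0.11 (SE), or 8.04-fold, with a limma adjusted p of 2.18e-13.

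S100a11, a growth regulator of keratinocytes that binds annexin A1, moved by nearly the same amount. It read 2.75, 2.78, 2.54, 2.86 and 2.36 in irradiated replicates 1 to 5, and -0.89, -0.31 and 0.13 as the lowest, median and highest of the control testes. The lowest irradiated array was replicate 5, and it still lay far above the highest control array. The means were 2.66 ± 0.21 (SD, n = 5) and -0.33 ± 0.29 (SD, n = 10), a change of 2.99 ± 0.14 (SE) or 7.94-fold, with a limma adjusted p of 4.66e-12. RefSeq lists 5 pseudogenes and 2 further genes named as S100a11-like, and 1 pseudogene of S100a10. Whether the probe sets also read these copies was not tested.

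S100a6 (calcyclin), which binds annexin A11 and the ubiquitin-ligase adaptor Cacybp, shifted by a little less. Irradiated replicates 1 to 5 read 1.66, 2.11, 1.35, 1.81 and 1.66, and the control testes had a lowest value of -1.34, a median of -1.12 and a highest of -0.68. The highest control array stood apart from the other control arrays but below all irradiated arrays. The mean was 1.72 ± 0.27 in irradiated testes (SD, n = 5) and -1.11 ± 0.18 in control testes (SD, n = 10). The change of 2.83 ± 0.12 (SE), or 7.11-fold, had a limma adjusted p of 9.82e-13.

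S100a4, which binds the heavy chain of non-muscle myosin IIA and favours cell migration, had the largest measured change of the 5 and the widest interval. Irradiated replicates 1 to 5 read 0.79, 0.92, 0.30, 0.65 and 1.11, and the control testes -4.63 at the lowest, -3.45 at the median and -1.36 at the highest. Of the 10 control arrays 1, replicate 8, reached its array's median, so the other 9 control values lie where an array gives only a bound. The means were 0.76 ± 0.30 (SD, n = 5) in irradiated testes and -3.46 ± 0.94 (SD, n = 10) in control testes. The measured change was 4.21 ± 0.40 (SE), with a limma adjusted p of 3.88e-08. As S100a4 passed the filter through the irradiated arrays, that p adds no support. With every array set to no less than its median, the rise was at least 2.21 on the log2 scale, or at least 4.61-fold.

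S100b, best known as a protein of glia and Schwann cells and a ligand of Ager, had the narrowest spread within both groups. Irradiated replicates 1 to 5 read 2.11, 2.06, 1.92, 2.10 and 2.10. In control testes the lowest value was -0.65, the median -0.40 and the highest -0.30. Replicate 3 was lowest among the irradiated arrays, and the whole irradiated group still spanned a narrow band. Means were 2.06 ± 0.08 in irradiated testes (SD, n = 5) and -0.43 ± 0.12 in control testes (SD, n = 10), a change of 2.49 ± 0.08 (SE) or 5.62-fold, with a limma adjusted p of 2.21e-14.

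**Figure D1:**
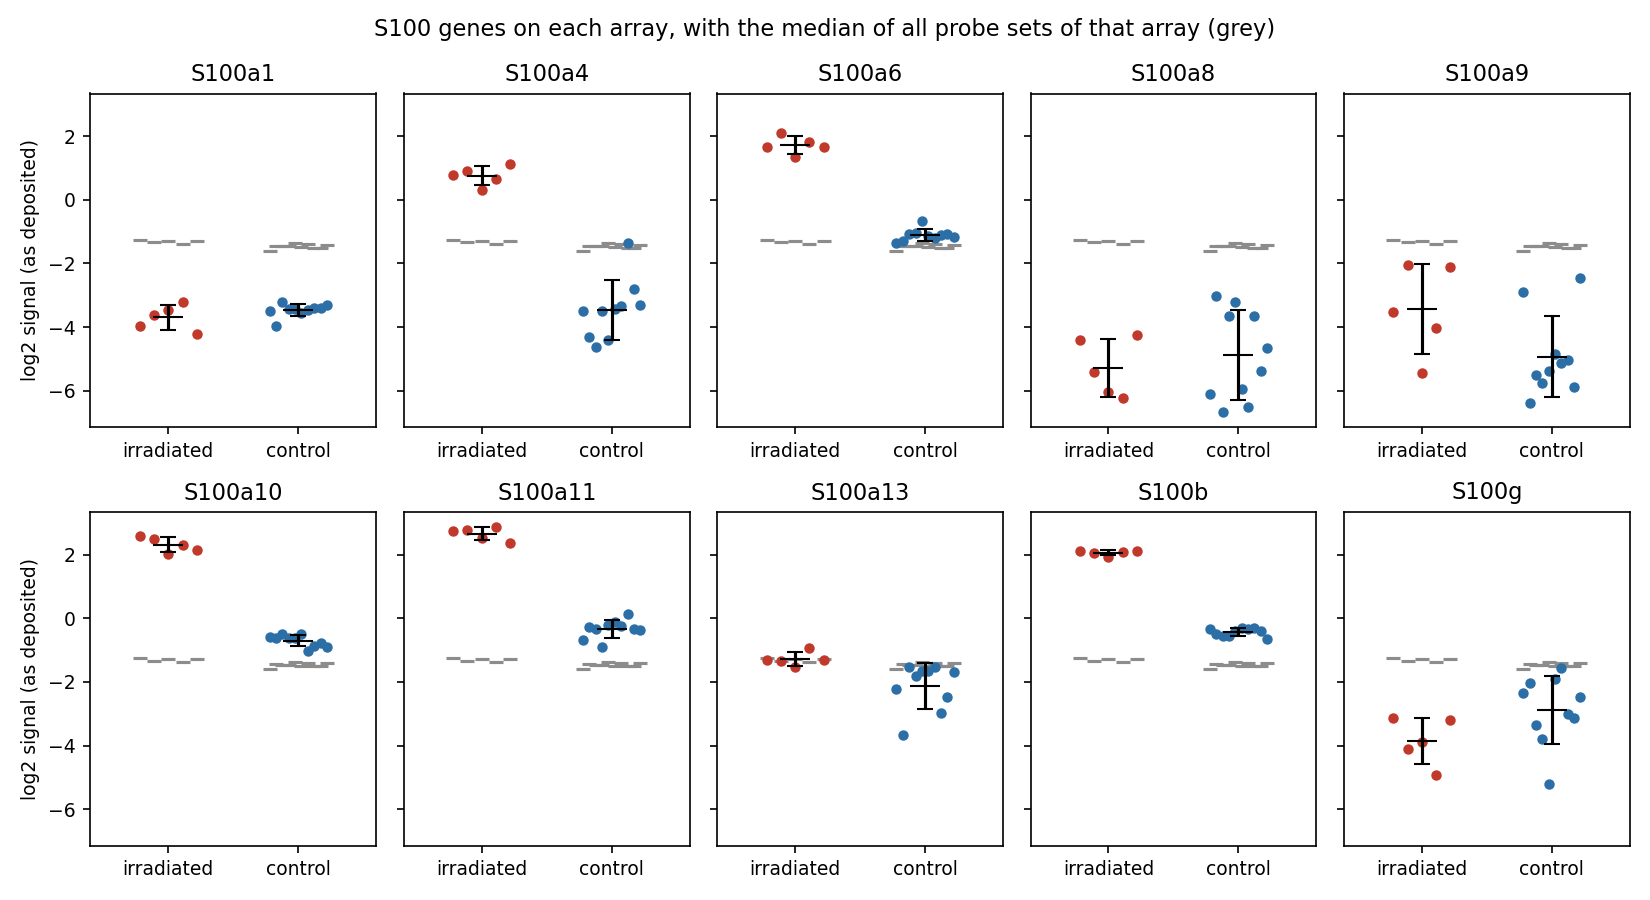
Log2 signal (y axis, as deposited) of the 10 S100 genes on each array, irradiated (red, n = 5) beside control (blue, n = 10), with mean and SD in black and each array's own median in grey. S100a6, S100a10, S100a11 and S100b lie above the grey marks in both groups and S100a4 in irradiated testes and 1 control array, whereas S100a1, S100a8, S100a9 and S100g stay below them on every array.

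Set side by side, the 95% intervals of the changes ran from 2.77 to 3.25 for S100a10, 2.69 to 3.29 for S100a11, 2.58 to 3.08 for S100a6 and 2.33 to 2.66 for S100b. Those of S100a6, S100a10 and S100a11 overlap one another, and that of S100b overlaps that of S100a6 and neither of the other two. The interval of S100a4, 3.37 to 5.06 as measured, is not compared, since its control level is mostly a bound. The differences between members were not tested. Among all genes tested, 95.6% had a smaller change than S100a10, 95.5% than S100a11, 94.6% than S100a6 and 91.7% than S100b. Irradiated replicate 3 was the lowest of the irradiated arrays in 4 of the 5 members, S100a11 being the exception. Control replicates 6, 7 and 8 had the highest actin 3′ minus 5′ differences, a measure of RNA quality, at 1.37 to 1.89 against 0.65 to 1.89 over all control arrays and 0.90 to 1.16 in irradiated arrays. Without these 3 arrays the changes were 4.53 for S100a4, 2.97 for S100a10, 3.10 for S100a11, 2.81 for S100a6 and 2.54 for S100b.

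**Figure D2:**
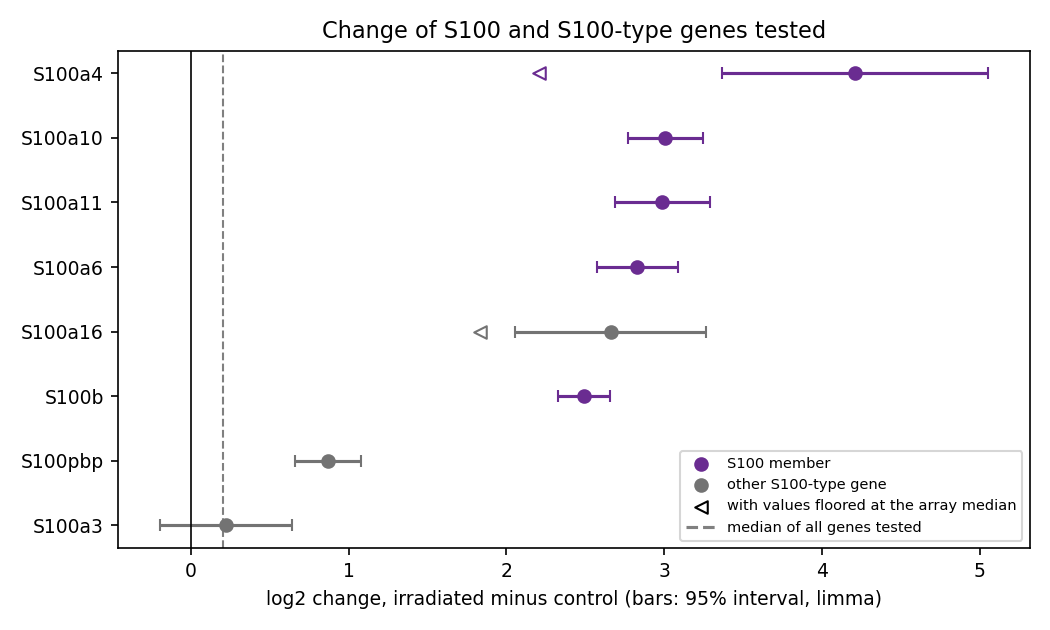
Log2 change, irradiated minus control, with limma's 95% interval, of the 5 S100 members tested (purple) and 3 other S100-type genes (grey); the open triangles show S100a4 and S100a16 with dim arrays set to the array's median, and the dashed line is the median of all genes tested (0.20). S100a4 lies at 4.21 and falls to 2.21 under that floor, and the other members lie between 2.49 and 3.01.

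The other 5 S100 genes had signals too low to test. S100a8 and S100a9 pair as calprotectin, the abundant calcium- and zinc-binding complex of neutrophils. S100a8 read -4.42, -5.42, -6.05, -6.23 and -4.26 in irradiated replicates 1 to 5, and -6.67, -5.02 and -3.01 as the lowest, median and highest of control testes. S100a9 read -3.54, -2.05, -5.44, -4.02 and -2.11 in irradiated testes, and -6.39, -5.25 and -2.44 in control testes. The groups overlapped in both genes, and all values were below the array's median. Of 10 neutrophil markers on the array, 8 were below the array's median everywhere, Mmp8, Camp, Csf3r and Cxcr2 among them. The other 2 were tested: Lcn2, a neutrophil granule protein that other cells also make, was above the median on all arrays and changed by 0.96 ± 0.08 (SE, limma adjusted p 6.47e-09), and Slpi, a protease inhibitor, by -0.60 ± 0.20 (SE, limma adjusted p 0.0123). Slpi reached the array's median in 1 of 5 irradiated arrays. With values set to no less than that median it changed by -0.09. The summed signal of the neutrophil markers was 3.95 to 4.93 in irradiated testes and 2.92 to 3.63 in control testes, and their part in the S100 values was not tested.

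S100a1, a regulator of the ryanodine receptor and calcium pump in striated muscle, read -3.95, -3.63, -3.45, -3.21 and -4.22 in irradiated replicates 1 to 5, and -3.95, -3.43 and -3.21 as the lowest, median and highest of control testes. S100g (calbindin-D9k), the vitamin D-dependent calcium carrier of intestine, uterus and placenta, read -3.14, -4.10, -3.89, -4.92 and -3.21 in irradiated testes, and -5.21, -2.74 and -1.57 in control testes. Both genes overlapped between the groups and lay below the array's median throughout. S100a13, which helps release the growth factor Fgf1 from cells, came closest to the filter. It read -1.31, -1.35, -1.54, -0.92 and -1.31 in irradiated replicates 1 to 5, and -3.67, -1.75 and -1.53 in control testes, so that 1 irradiated array and none of the control arrays reached the median. Its irradiated mean was at least 1.13-fold the control bound. When every probe set was tested with no filter, S100a13 alone of these 5 passed, with a limma adjusted p of 0.0295, against 0.209 for S100a1, 0.608 for S100a8, 0.062 for S100a9 and 0.103 for S100g. That fit called 75.1% of all genes.

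Of the 10 members 8 lie on rat chromosome 2, S100b lies on chromosome 20 and S100g on the X chromosome. The RefSeq order of the chromosome 2 genes is S100a1, S100a13, S100a14, S100a16, S100a3, the pseudogene S100a2, S100a4, S100a5, S100a6, S100a7a, S100a8, S100a9, S100a7l2, S100vp, S100a11 and S100a10. Of these 16, 14 were on the array, 6 passed the filter and 5 of those were higher in irradiated testes. The sixth, S100a3, next to S100a16 in this order, was tested and not called. Over all genes tested, 47.6% were called higher and 37.9% lower. S100a16 and S100a4 passed the filter through the irradiated arrays, so their calls add no support. No other gene separates S100a4 from S100a5 or S100a5 from S100a6, yet S100a5 was below the array's median on all arrays, while both of its neighbours rose. S100a11 and S100a10 are 1 gene apart and changed by 2.99 and 3.01, and 77 genes lie between S100vp and S100a11.

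**Figure D3:**
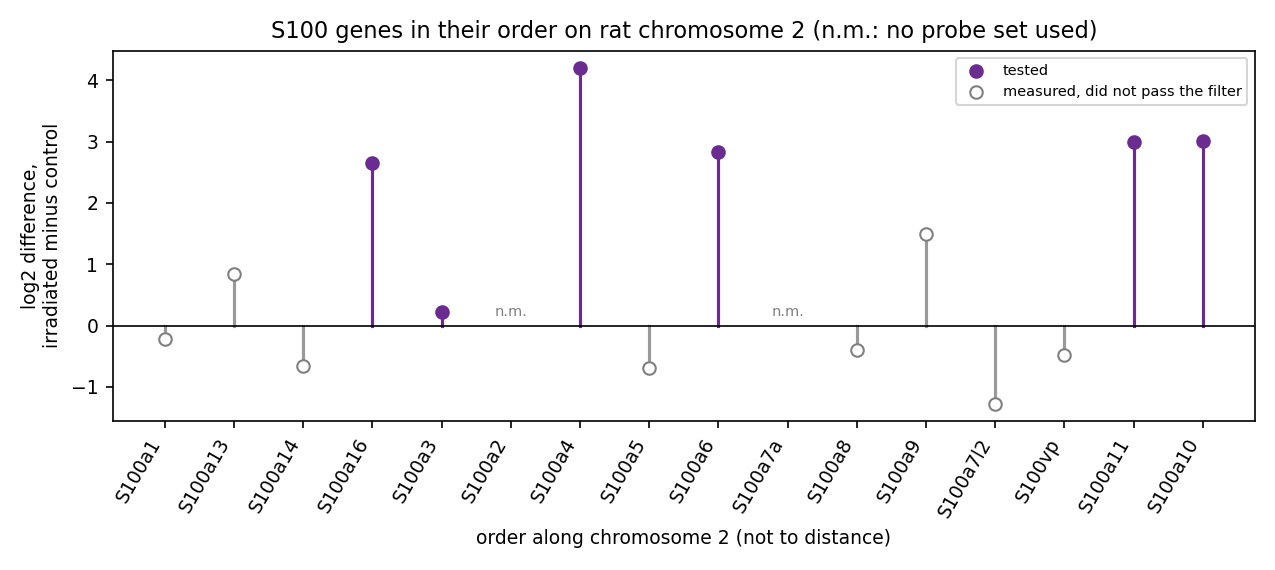
Log2 difference, irradiated minus control, of the S100 genes in their order along rat chromosome 2 (x axis, not to distance); filled points passed the filter and open points did not, with n.m. for S100a2 and S100a7a, which had no probe set used. S100a16 (2.66), S100a4 (4.21), S100a6 (2.83), S100a11 (2.99) and S100a10 (3.01) rise, S100a3 (0.22) was tested and not called, and the other measured genes did not pass the filter.

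Of 18 other S100-type genes listed, 8 were on the array, 3 were tested and 2 were higher, neither of them once arrays were centred on the Sertoli cell markers. S100a16, a broadly expressed member, read 0.66, 0.21, 0.11, 0.62 and 0.21 in irradiated replicates 1 to 5, and -3.08, -2.39 and -1.42 at the lowest, median and highest of control testes. It was below the array's median in every control array, so its irradiated level was at least 3.55-fold higher (limma adjusted p 1.86e-07). It passed the filter through the irradiated arrays alone, so that its call adds no support. S100pbp, a binding protein of S100P, changed by 0.87 ± 0.10 (SE, limma adjusted p 3.68e-07), and its other probe set by 0.64. S100a3, a hair follicle protein, differed by 0.22 ± 0.20 (SE, limma adjusted p 0.304). S100a5, S100a7l2, S100a14, S100vp and Tchh were below the array's median on all arrays.

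Annexins bind membranes in a calcium-dependent way. Of 12 annexin and membrane partners tested, 11 were higher and none was lower, with a median change of 1.95, although 5 were higher and 6 lower once arrays were centred on Sertoli cell markers. Anxa5, the phosphatidylserine-binding annexin, had the largest change at 3.15 ± 0.09 (SE, limma adjusted p 1.06e-14). Anxa2, the partner of S100a10, averaged 3.79 ± 0.24 in irradiated testes (SD, n = 5) and 0.84 ± 0.13 in control testes (SD, n = 10), a change of 2.95 ± 0.10 (SE, limma adjusted p 7.55e-14). Anxa1, the partner of S100a11, averaged 1.38 ± 0.13 in irradiated testes and -1.59 ± 0.26 in control testes, where 3 of 10 arrays reached their median, and rose by at least 2.79 (limma adjusted p 1.05e-12). Anxa11, the partner of S100a6, changed by 2.70 ± 0.08 (SE, limma adjusted p 1.61e-14). Dysf, a membrane repair protein, differed by -0.13 ± 0.13 (SE, limma adjusted p 0.348).

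Of 9 receptors of secreted S100 proteins tested, 7 were higher and none was lower, with a median change of 3.07, and under the Sertoli centring 5 were higher and 3 lower. Cd36, a scavenger receptor that binds calprotectin, had the largest change, at least 4.43 (limma adjusted p 1.29e-09). Fgfr1, a growth factor receptor that S100b can bind, rose by at least 3.69 (limma adjusted p 3.14e-11), and by at least 2.45 in its other probe set (limma adjusted p 1.44e-11). Alcam, an adhesion molecule also bound by S100b, changed by 3.38 ± 0.12 (SE, limma adjusted p 1.74e-13). Bsg (basigin), a receptor of calprotectin, differed by -0.06 ± 0.13 (SE, limma adjusted p 0.646). Ager was below the array's median on all arrays, and Tlr4 reached it in 2 control arrays and no irradiated array, so neither was tested.

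Intracellular targets went both ways: of 25 tested, 15 were higher and 8 lower, with a median change of 0.54, and under the Sertoli centring 4 were higher and 17 lower. Myh9, the myosin heavy chain that S100a4 binds, rose by at least 3.55 (limma adjusted p 2.24e-09), and Vim, the intermediate filament protein of mesenchymal and Sertoli cells, by 2.99 ± 0.11 (SE, limma adjusted p 1.86e-13). Mdm2, the ubiquitin ligase of p53, changed by -4.01 ± 0.13 (SE, limma adjusted p 2.66e-14), although its other probe sets gave -3.17 and 0.28. Fkbp4, a co-chaperone that S100 proteins can displace from Hsp90, changed by -1.59 ± 0.11 (SE, limma adjusted p 8.24e-10). Cacybp differed by 0.24 ± 0.14 (SE, limma adjusted p 0.118), and its other probe set by -0.30 ± 0.16 (SE, limma adjusted p 0.0868). Fgf1, the cargo of S100a13, was below the array's median on all arrays in each of its 3 probe sets.

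Genes that handle calcium alongside S100g showed no common direction, with 3 of 9 tested higher, 2 lower and a median change of -0.01 (3 higher and 6 lower under the Sertoli centring). Slc8a1, the sodium-calcium exchanger, was at least 3.99-fold higher, and Esr1, the oestrogen receptor, at least 1.31-fold lower (limma adjusted p 6e-12 and 6.5e-05). Other EF-hand proteins, calcium binders outside the S100 family, were higher in 14 of 22 tested and lower in 7, with a median of 1.16 (6 higher and 12 lower under the Sertoli centring). Cetn2, a centriole protein, rose by at least 2.88 (limma adjusted p 1.4e-08). Cetn1, its relative in male germ cells, was at least 27.6-fold lower in irradiated testes (limma adjusted p 6.1e-13). Sri (sorcin), a calcium sensor of the sarcoplasmic reticulum, had probe sets that moved in opposite directions, -2.35 and 2.66.

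**Figure D4:**
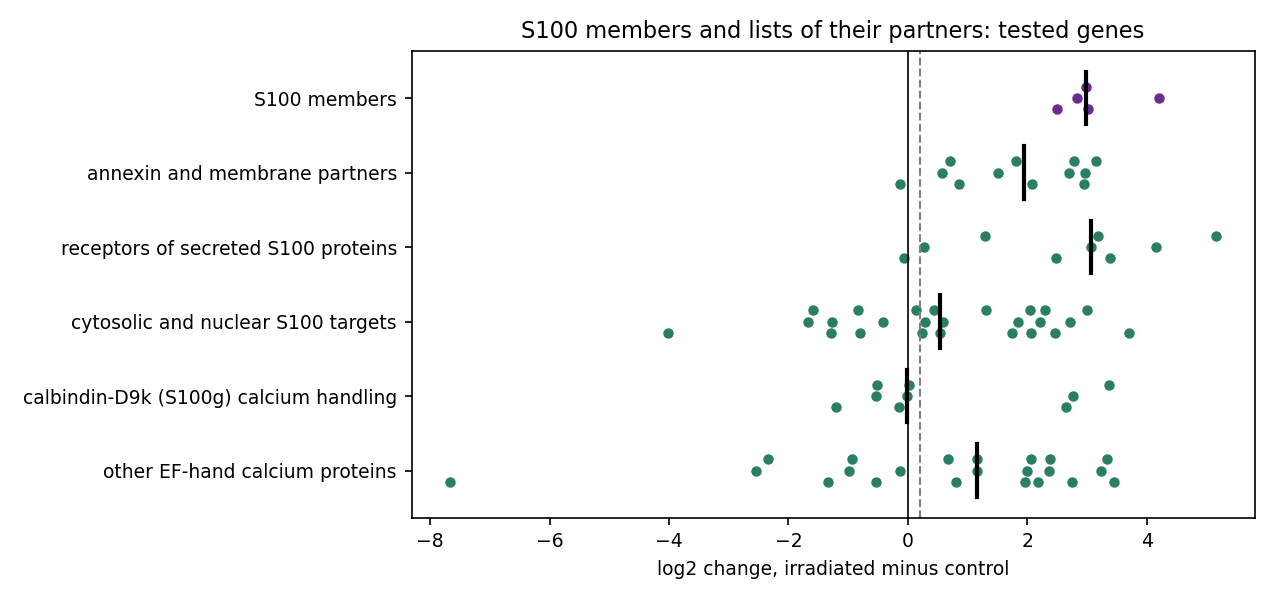
Measured log2 change, irradiated minus control, of each tested gene among the S100 members (purple) and 5 lists of partners and related proteins (green); black bars are list medians and the dashed line is the median of all genes tested (0.20). The members lie between 2.49 and 4.21, annexin and membrane partners have a median of 1.95, and intracellular targets spread to both sides of 0 (median 0.54).

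Members were then set against their binding partners within each array, as the member's log2 signal minus the partner's. Each probe set has its own sensitivity, so the gap itself has no meaning between genes and its difference between groups does. The gap of S100a10 to Anxa2 was -1.48 ± 0.10 in irradiated testes (SD, n = 5) and -1.54 ± 0.17 in control testes (SD, n = 10). It differed by 0.06, with a 95% interval of -0.12 to 0.24 and an exact 2-sided permutation p of 0.491 (0.614 after adjustment over the 5 pairs). The gap of S100a11 to Anxa1 was 1.28 ± 0.16 in irradiated and 1.25 ± 0.41 in control testes, a difference of 0.02 (interval -0.37 to 0.44, exact permutation p 0.919, adjusted 0.919). The gap of S100a6 to Anxa11 was -1.50 ± 0.34 in irradiated and -1.63 ± 0.19 in control testes, a difference of 0.13 (interval -0.15 to 0.41, exact permutation p 0.354, adjusted 0.611). In 7 of 10 control arrays Anxa1 was below the array's median, so its gap there is measured against a dim probe set and gives no firm size. None of the 3 pairs passed the test on the values as deposited. With a pseudocount of 1 added to linear signals all 3 did, at -0.53 for S100a10 with Anxa2 (exact permutation p 0.000333), 0.59 for S100a11 with Anxa1 (p 0.000333) and -0.53 for S100a6 with Anxa11 (p 0.000666). A pseudocount takes more off the change of the dimmer gene of a pair. In all 3 pairs the dimmer gene then had the smaller change, so these p-values cannot decide whether the pairs parted.

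S100a6 and its other partner Cacybp parted. Their gap was 0.88 ± 0.48 in irradiated and -1.71 ± 0.27 in control testes, and no irradiated array overlapped a control array. The difference was 2.59 (interval 2.19 to 2.99), and its exact permutation p of 0.000333, 0.00167 after adjustment, is the smallest that 3003 arrangements allow. It follows from the changes of 2.83 for S100a6 and 0.24 for Cacybp on the same arrays, so the test adds no separate support. The gap of S100a4 to Myh9 was -1.74 ± 0.29 in irradiated and -2.25 ± 1.16 in control testes, a difference of 0.51 (interval -0.65 to 1.66, exact permutation p 0.366, adjusted 0.611). That last value depended on which control arrays entered: without control replicates 6, 7 and 8 it was 1.05 (exact permutation p 0.0202), with control replicates 1 to 5 alone 1.37 (p 0.00794), and with replicates 6 to 10 alone -0.35 (p 0.365). With a pseudocount of 1 it was -0.91 (p 0.000333), and S100a4 was dim in 9 of the 10 control arrays, so the direction of this difference is not settled.

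**Figure D5:**
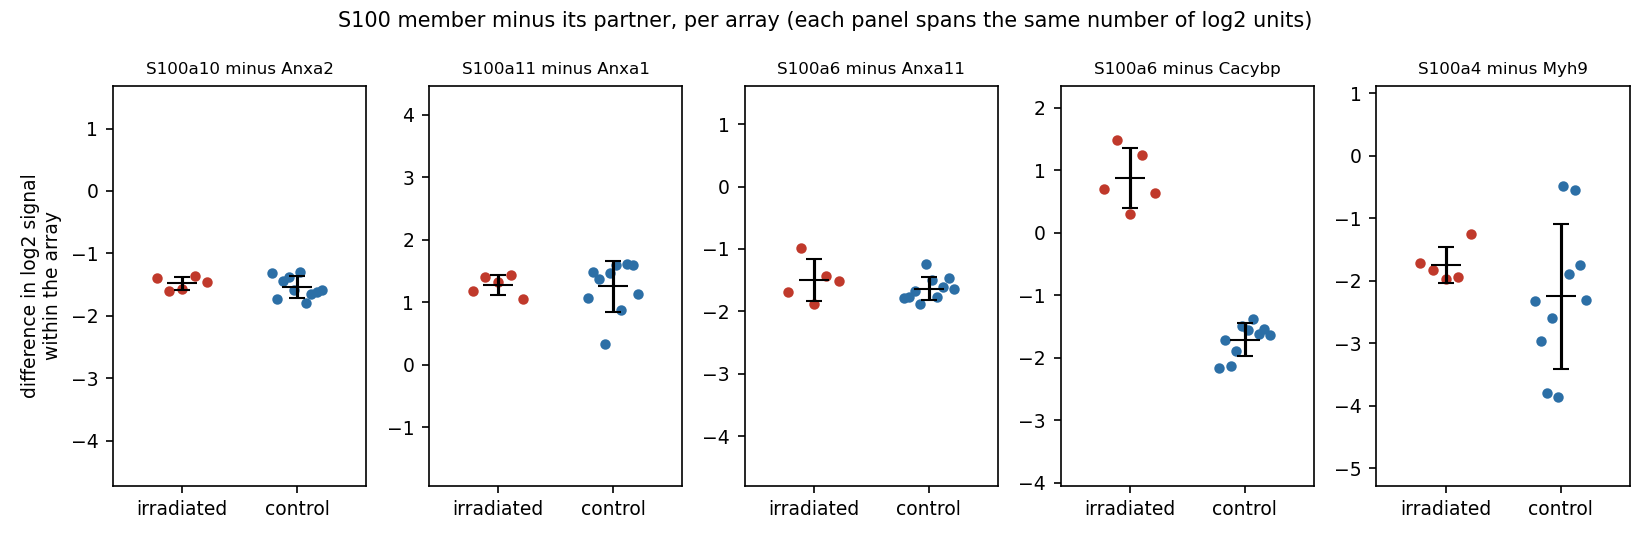
Difference in log2 signal between an S100 member and its binding partner on each array, irradiated (red, n = 5) beside control (blue, n = 10), with mean and SD in black; every panel spans the same number of log2 units. The groups overlap in the annexin pairs, and S100a6 minus Cacybp is 2.59 higher in irradiated testes.

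Cell types that could carry S100 transcripts differed in their markers. Markers of Schwann and neural cells, where S100b is abundant, were higher in 3 of 5 tested and lower in 1 (none higher and 4 lower under the Sertoli centring), with a summed signal of 6.76 to 8.49 in irradiated and 4.63 to 6.92 in control testes. Sox10, a defining Schwann cell factor, and Gap43 were below the array's median on all arrays. Cnp, a myelin enzyme, changed by 2.12 ± 0.10 (SE, limma adjusted p 2.7e-12). The probe sets of Pmp22, a myelin protein, gave 0.54 and 2.82, both called higher (limma adjusted p 0.0112 and 1.35e-14). Gfap changed by 0.28 ± 0.11 (SE, limma adjusted p 0.0302). Prx was the marker called lower, at least 1.95-fold lower in irradiated testes. Erbb3 differed by -0.01 ± 0.24 (SE, limma adjusted p 0.96). Adipocyte markers, of a cell type that also holds S100b, were higher in 2 of 5 tested and lower in 2 (summed signal 3.33 to 4.53 in irradiated and 1.84 to 2.85 in control testes), and Fabp4 and Lep were below the array's median on all arrays.

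Macrophage markers were higher in 12 of 14 tested and lower in 2, with a median measured change of 2.39. Their summed signal was 30.1 to 34.7 in irradiated testes and 13.4 to 18.0 in control testes. The lower ones were Aif1 (-3.25, and -0.56 in its other probe set) and Adgre1 (at least 1.69-fold lower). Aif1, with a control mean of 3.24, was the brightest of these markers in control testes and weighs most in that sum. Cd68, Cd163, C1qb and Ptprc were below the array's median in every control array, so their calls add no support. Peritubular myoid markers were higher in 9 of 10 tested and none was lower, with summed signals of 27.5 to 36.7 in irradiated and 8.63 to 11.4 in control testes. Endothelial markers were higher in 8 of 9 tested and lower in 1, with summed signals of 8.44 to 10.5 in irradiated and 2.52 to 3.78 in control testes. Erythrocyte markers were higher in 2 of 3 tested and lower in 1, with summed signals of 9.03 to 15.2 in irradiated and 3.15 to 5.18 in control testes, led by Hbb, a haemoglobin chain, at 2.24 ± 0.25 (SE, limma adjusted p 3.07e-07). Spermatogonia markers were higher in 3 of 7 tested and lower in 2, with summed signals of 7.66 to 10.4 in irradiated and 6.67 to 7.87 in control testes. The part of each of these cell types in the S100 changes was not tested. When arrays were centred on the Sertoli cell markers instead, the median of all genes was -1.89 and 917 genes were called higher and 8926 lower, in place of 5161 higher and 4111 lower. This centring takes 2.09 off every change. The Sertoli cell markers themselves were then called higher in 5 and lower in 4, so they did not move alike. Under this centring, 6 macrophage markers were higher and 4 lower, and 3 peritubular markers were higher and 6 lower. Likewise 1 endothelial marker was higher and 4 lower, and 8 Leydig cell markers were higher and 1 lower. S100a16 was then at 0.57 (limma adjusted p 0.0967), S100a3 at -1.87 (limma adjusted p 4.6e-07) and S100pbp at -1.22 (limma adjusted p 8.14e-09). The 5 members were still called higher under that centring, with the largest limma adjusted p at 0.00253 for S100b. Whether they rose beyond the Sertoli cell content was not tested. The changes were 0.92 for S100a10, 0.90 for S100a11, 0.74 for S100a6 and 0.40 for S100b. S100a4 was at 2.12 as measured, a size that rests on mostly dim control values. Its lower bound without this centring was 2.21, of which the centring takes off 2.09.

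Genes whose pattern over the 15 arrays most resembled each member were found among 10840 genes by the root mean square difference, after centring each on its control mean. S100b lay closest to Tns3, a focal adhesion protein, at 0.10 log2 units and to A2m, a secreted protease inhibitor, at 0.12. S100a10 lay closest to Slc25a4, the mitochondrial ADP/ATP carrier, at 0.13 and to Ddx3x, an RNA helicase, at 0.15. S100a6 lay closest to Sdc4, a cell surface proteoglycan, at 0.17 and to Nono, a nuclear RNA-binding protein, at 0.18. S100a11 lay closest to Flot2, a membrane raft protein, at 0.19 and to F2r, the thrombin receptor, at 0.21. S100a4, with its scattered control values, had no match nearer than Dsg2, a desmosomal cadherin, at 0.56, and then Phyhip at 0.65. Among the members themselves S100a6 and S100a10 were nearest, at 0.24, and S100a4 was 1.00 to 1.22 from each of the others.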

How the data were processed

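The authors' signals come from MAS5 (no version), per the submitters' processing notes. No source used here gives their scaling or zero point. The deposited values are on a log2 scale, read from the spike-in probe sets (0.928 log2 units per doubling of concentration in irradiated arrays and 0.893 in control arrays), and were used unchanged. No column was left unused (0 columns). The number of arrays limits the precision.

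Genes were named from the platform table, which gives 1 symbol to 20832 probe sets, several to 436 and none to 9831, and the 57 AFFX probe sets were not tested. Probe sets at or above their array's median in at least 5 of 15 arrays (18711; 12331 left out) were tested for a difference between irradiated and control arrays, 2-sided, using limma 3.58.1 (R 4.3.3), with Benjamini-Hochberg adjustment over all of them and a threshold of 0.05. A gene was represented by its brightest tested probe set (mean of all arrays). Where a group lay below the array's median, a change is given as "at least", with values set to no less than that median. Such a gene, and S100a4 as well, can pass the filter through the brighter group alone, and its p then adds no support. Gaps between members and partners were tested by exact permutation of arrays. Same-numbered irradiated and control arrays did not deviate together (0 of 5 pairs above a correlation of 0.1), so numbers do not pair them.

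The S100 members and the lists were chosen with earlier results of these data known. From each list of partners and related proteins, the genes with the largest called change in each direction and the direct binding partners of members were named by rule. From the cell type lists, Lcn2, Hbb, Cnp and Lpl were named as the called marker of largest change. For most other cell types no such marker is named. Dysf, Bsg, Fgfr1, Alcam, Vim, Fkbp4, Sri, Pmp22, Gfap, Prx, Erbb3 and Slpi were picked after their values were seen. So were Ly96, Cd68, Aif1, Adgre1, Cfd, Pparg and Adrb3, the marker genes given as dim, and the promoters shown or named. Fits were tested on simulated data. Alternatives were other scalings, filters, pseudocounts, a replicate block and left-out arrays. Promoters and gene order are from RefSeq (GRCr8), and protein sequences were not used here.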

Additional observations from a re-analysis of the deposited data

Results flagged for a closer look

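Within groups of 4 to 10 arrays, the 28 combinations of an S100 or S100-type probe set and a group were checked for an array far from the rest, and 3 had one. Chance alone flags about 5% of such groups. S100b in irradiated replicate 3 was the lowest of its group at 1.92, and the nearest other array was at 2.06. S100a6 in control replicate 5 was the highest of its group at -0.68, with the nearest other array at -1.05. S100a1 in control replicate 2 was the lowest of its group at -3.95, with the nearest other array at -3.56, all of them below the array's median.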

How the results depend on the processing

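The changes of S100a4, S100a6, S100a10, S100a11 and S100b kept their direction and their side of the threshold in 29 of 29 alternatives each. They spanned 1.28 to 4.83 for S100a4, 0.74 to 2.93 for S100a6, 0.92 to 3.12 for S100a10, 0.90 to 3.14 for S100a11 and 0.40 to 2.59 for S100b. For S100a4 these are measured sizes that rest on mostly dim control values. The count of members called higher was 5, and 6 with no filter, where S100a13 passed. With the filter at the 75th percentile 9442 probe sets were called in all, in place of 15598, since only 10448 were tested. Leaving out 1 array at a time gave 13758 to 15562 probe sets, and 5 members higher and 0 lower each time. With the replicate block (irradiated arrays against control replicates 1 to 5) 14430 probe sets were called, against 14638 on the same arrays without it, and it changed no call of a member, with changes of 2.90 for S100a10, 3.14 for S100a11, 4.83 for S100a4, 2.81 for S100a6 and 2.52 for S100b. Quantile normalization called 4481 genes higher and 4790 lower, with the median of all genes at -0.06, and centring on the spike-ins, chosen like the splits of the control arrays after seeing the data, 4616 and 3030. Some gaps to partners reversed. A pseudocount takes more off the change of the dimmer gene of a pair, and the cause of the other reversals was not tested. S100a10 minus Anxa2 was -0.049 after quantile normalization, -0.53 with a pseudocount of 1 and -0.27 with one at the array median. S100a6 minus Anxa11 was -0.079, -0.53 and -0.27 under the same alternatives. S100a4 minus Myh9 was -0.91 and -0.74 with these pseudocounts, and -0.35 against control replicates 6 to 10 alone. S100a11 minus Anxa1 was -0.082 against control replicates 6 to 10 alone and lay between -0.079 and 0.080 when 1 array was left out. With these pseudocounts it was 0.59 and 0.42. Over all lists, members and pairs, 66 recomputed values lost a call or fell below their count by over 1.5 times, 31 gained a call or exceeded it, 14 reversed and the rest kept theirs. Dim probe sets limit S100a1, S100a8, S100a9, S100a13 and S100g to bounds.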
